A study of Mus musculus with 4 samples.

Results

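CA3 and CA2 neurons are the pyramidal cells of adjoining fields of the hippocampus, and their estimated shares were followed here in spatial transcriptomic sections of mouse brain. A spot was taken to hold CA3 neurons where the deposited share of the type Glutamatergic_CA3 was above 0, and to hold CA2 neurons where that of Glutamatergic_CA2_IG_FC was above 0. By this rule 118 spots held CA3 and 82 held CA2_IG_FC, of 14809 spots in all. Since 27 spots held both, 173 spots (1.17% of all) held at least 1 of the 2 types.

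CA3 neurons receive the mossy fibres of dentate gyrus granule cells, excite one another through recurrent collaterals, and send Schaffer collaterals to the pyramidal cells of CA1. CA2 is a narrow field lying between CA3 and CA1 and is known in mice for its part in social memory. In rats, CA3 dendrites are known to retract under repeated stress. IG and FC are read here as indusium griseum and fasciola cinerea, thin strips of hippocampal tissue outside the main fields, although the headers do not spell them out.

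The study exposed wild type C57 mice to chronic social defeat stress (CSDS) and sorted them by a social interaction test. The groups were a ketamine-treated susceptible mouse, which received ketamine intraperitoneally at 10 mg/kg with the brain taken 7 days later, a susceptible mouse given saline, a resilient mouse given saline, and a control given saline. Each group was 1 sagittal brain section, with 3477 spots in the ketamine-treated susceptible, 3443 in the susceptible, 4156 in the resilient and 3733 in the control section. The sources used here do not give age, sex or how the control was housed. With 1 section per group there are no replicates and no test across mice, so the intervals below cover counting error only. Differences between mice, slides and cutting planes cannot be told apart from those between groups.

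The tables hold shares for 67 cell types and no gene values, so the CA3 and CA2 labels could not be checked against marker genes. They were set instead against the deposited clusters and the other types in the same spots. The smallest share kept in any spot was 10.9% in the ketamine-treated susceptible, 11.1% in the susceptible, 10.1% in the resilient and 11.2% in the control section. A spot listed at 0 can therefore hold a smaller amount of the type. Spots kept 2.14, 2.06, 2.31 and 2.22 types on average in the same order.

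Spot barcodes recurred between sections: the 14809 spots carried 4718 different barcodes, and 2503 were in all 4 sections. The ketamine-treated susceptible and susceptible sections had 3304 barcodes in common, of which 53.2% had the same cluster number in both. The resilient and control sections had the same number for 25.8% of their 3199 common barcodes, and the other pairs for 1.10% to 2.56%. Of the common barcodes with over 1 type, 0 had the same shares in both sections of a pair (within 1e-06 of the spot). CA3 was held in both the ketamine-treated susceptible and the susceptible section at 8 barcodes, among 15 and 23 CA3 barcodes that the pair had in common, and CA2_IG_FC at 5, among 17 and 22. In every other pair of sections, 0 barcodes held CA3 or CA2_IG_FC in both. Spot positions and reads were not analysed here. Whether equal barcodes mark equal places, or the ketamine-treated susceptible and susceptible libraries share reads, was not tested, and the values that set this pair side by side carry that limit.

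CA3 was a sparse label in all 4 sections. It was held by 15 spots in the ketamine-treated susceptible section, or 0.431% (95% Clopper-Pearson interval 0.242 to 0.711). The susceptible section had 25 spots, or 0.726% (0.470 to 1.07). The resilient section had 46 spots, or 1.11% (0.811 to 1.47), and the control section 32 spots, or 0.857% (0.587 to 1.21). The resilient section was the highest and the ketamine-treated susceptible section the lowest, and only the intervals of these 2 sections did not overlap. Ranked by the number of spots holding each of the 67 types, CA3 stood at place 40 in the ketamine-treated susceptible, 34 in the susceptible and 32 in both the resilient and the control section.

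CA2_IG_FC followed another order, with the control lowest. It was held by 17 ketamine-treated susceptible spots, or 0.489% (0.285 to 0.782), and by 22 susceptible spots, or 0.639% (0.401 to 0.966). The resilient section had 30 spots, or 0.722% (0.487 to 1.03), and the control section 13 spots, or 0.348% (0.186 to 0.595). All 4 intervals overlapped. As a level over the whole section, the mean CA2_IG_FC share was 0.153% in the ketamine-treated susceptible, 0.247% in the susceptible, 0.262% in the resilient and 0.140% in the control section. The mean CA3 share was 0.201%, 0.368%, 0.462% and 0.398% in the same order. Shares are relative estimates, so fewer cells of a type and less RNA per cell cannot be told apart.

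**Figure D1:**
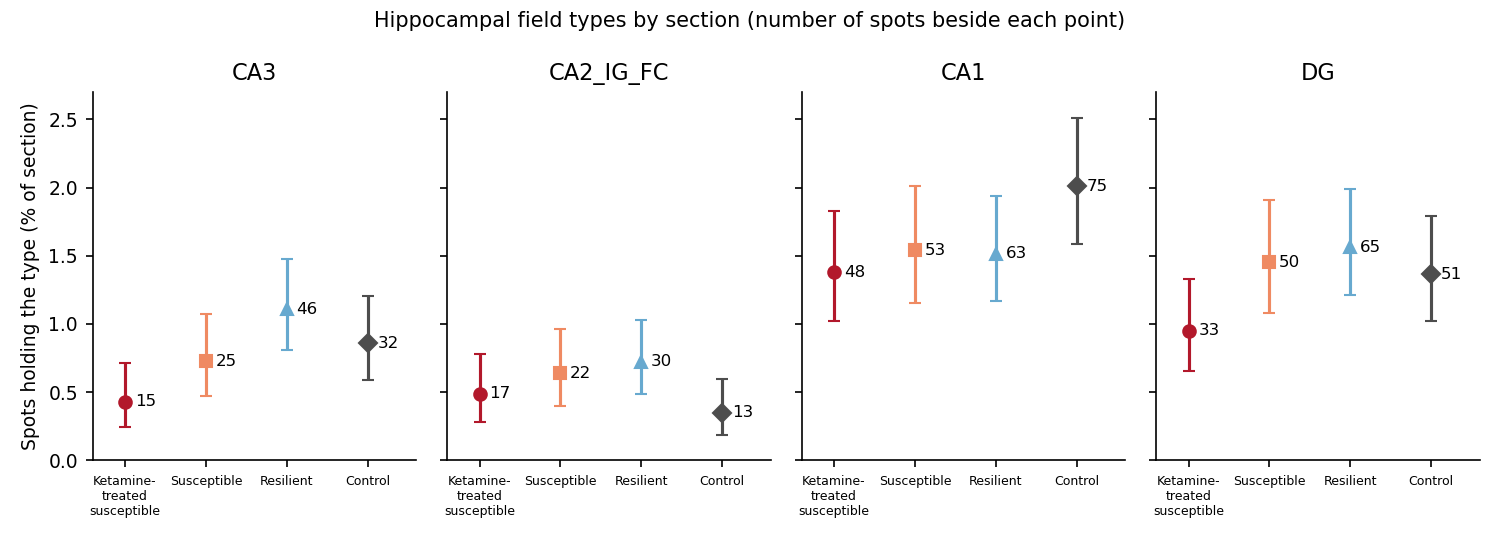
Percent of all spots of a section that hold CA3, CA2_IG_FC, CA1 or DG, with exact 95% intervals for counting error and the number of spots beside each point, for the ketamine-treated susceptible, susceptible, resilient and control sections. CA3 ranges from 15 to 46 spots and CA2_IG_FC from 13 to 30, and both lie below CA1 (48 to 75) and DG (33 to 65) in every section.

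The ketamine-treated susceptible and susceptible sections differ by ketamine after the same stress outcome. CA3 was held by 0.594 times as many spots per section in the ketamine-treated susceptible as in the susceptible section (exact conditional 95% interval of the ratio 0.291 to 1.17), and CA2_IG_FC by 0.765 times as many (0.381 to 1.51). Both intervals include 1, so neither difference was detectable with these numbers of spots. Of the 41 types held by at least 20 spots in either section, 29.3% had a ratio whose interval leaves out 1. The barcodes common to the pair gave a CA3 ratio of 0.652 and a CA2_IG_FC ratio of 0.773.

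Against the control, the ketamine-treated susceptible section held CA3 in a smaller share of spots, while the ratio interval of CA2_IG_FC includes 1. The CA3 ratio was 0.503 (0.253 to 0.957), which leaves out 1, and the CA2_IG_FC ratio was 1.40 (0.642 to 3.14). A ratio interval wholly below 1 was found for 10% of the 40 types counted in this pair, and one that leaves out 1 in either direction for 37.5%. CA2_IG_FC itself, with 17 and 13 spots, was under the minimum of 20 and not among the 40. Within cluster 10, where most CA3 spots lay, the CA3 ratio was 0.563 and its interval (0.241 to 1.21) includes 1. CA1 and DG were also in smaller shares of spots, with ratios of 0.687 (0.468 to 1.00) and 0.695 (0.434 to 1.10), whose intervals include 1. The summed share of the hippocampal fields CA1, CA1_ProS, CA2_IG_FC, CA3 and DG came to 66.8 spots in the ketamine-treated susceptible and 108 in the control section. As a part of that sum, the CA3 ratio was 0.764.

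The susceptible section was set against the control to ask about stress with avoidance. The CA3 ratio was 0.847 (0.481 to 1.48), and the CA2_IG_FC ratio 1.83 (0.884 to 3.96). Both intervals include 1, beside 41.5% of 41 types whose interval left it out. Against the resilient section, which also came from a defeated mouse, the susceptible section had a CA3 ratio of 0.656 (0.386 to 1.09) and a CA2_IG_FC ratio of 0.885 (0.487 to 1.59). Here 56.5% of 46 types had an interval that left out 1, and neither CA3 nor CA2_IG_FC did.

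The resilient section held CA2_IG_FC in more spots than the control. The ratio was 2.07 (1.05 to 4.33), from 30 spots against 13, while that of CA3 was 1.29 (0.805 to 2.10). An interval wholly above 1 was found for 37.8% of the 45 types counted in this pair, and for 55.6% it left out 1 in either direction. Within cluster 10 the CA2_IG_FC ratio was 1.74 with an interval of 0.829 to 3.83, which includes 1. Counting only spots in which CA2_IG_FC had the highest share, the direction turned, at 0.898 with 7 resilient and 7 control spots. The 5 comparisons share sections, so their ratios are not independent of each other.

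The balance of the 2 fields can be set side by side within each section, where the number of spots cancels. There were 0.882 CA3 spots for each CA2_IG_FC spot in the ketamine-treated susceptible section, 1.14 in the susceptible, 1.53 in the resilient and 2.46 in the control. Of the summed CA3 and CA2_IG_FC share, CA3 made up 56.7%, 59.8%, 63.9% and 74.0% in the same order. No interval was computed for this balance, and the control value rests on 13 CA2_IG_FC spots. The order did not hold for spots led, with 8, 13, 20 and 16 led by CA3 and 3, 6, 7 and 7 by CA2_IG_FC. By that count the resilient section had more CA3 than the control for the same 7 CA2_IG_FC spots. Of the summed share of all 5 hippocampal field types, CA3 made up 10.5% in the ketamine-treated susceptible, 13.6% in the susceptible, 16.4% in the resilient and 13.7% in the control section. CA2_IG_FC made up 7.99%, 9.14%, 9.29% and 4.82%. By this measure the CA3 parts of the susceptible and control sections were close together, and CA2_IG_FC was again lowest in the control. That order depended on the measure: counting only spots with a CA2_IG_FC share of at least 20%, the ketamine-treated susceptible section (0.345% of its spots) lay just below the control (0.348%). Spots led by CA2_IG_FC made up 0.0863% of the ketamine-treated susceptible, 0.174% of the susceptible, 0.168% of the resilient and 0.188% of the control section, so that the control was the highest.

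CA3 and CA2_IG_FC seldom filled a spot, in contrast to the other 2 main hippocampal fields. Where present, CA3 took a median of 39.4% of the spot in the ketamine-treated susceptible section (range 15.1 to 100), 45.3% in the susceptible (13.1 to 100), 34.0% in the resilient (13.0 to 100) and 42.1% in the control section (17.8 to 100). The CA2_IG_FC medians were 28.0% (14.6 to 66.8), 34.1% (11.9 to 100), 30.2% (12.6 to 100) and 37.6% (20.3 to 100) in the same order. The ranges overlapped almost completely between sections. CA1 neurons, the output field that receives the Schaffer collaterals, had medians of 54.3% to 64.8%, and granule neurons of the dentate gyrus (DG) of 71.7% to 100%.

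CA3 was the only type in 7 of its 118 spots and CA2_IG_FC in 4 of its 82, against 57 of 239 CA1 spots and 90 of 199 DG spots. CA3 had the highest share in 57 spots (48.3%), with 8 of 15 in the ketamine-treated susceptible, 13 of 25 in the susceptible, 20 of 46 in the resilient and 16 of 32 in the control section. CA2_IG_FC led 23 spots (28.0%), with 3 of 17, 6 of 22, 7 of 30 and 7 of 13 in the same order. The control section thus led in CA2_IG_FC by share of its spots, from the smallest number of them. CA1 led 69.9% of its spots and DG 78.4%.

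**Figure D2:**
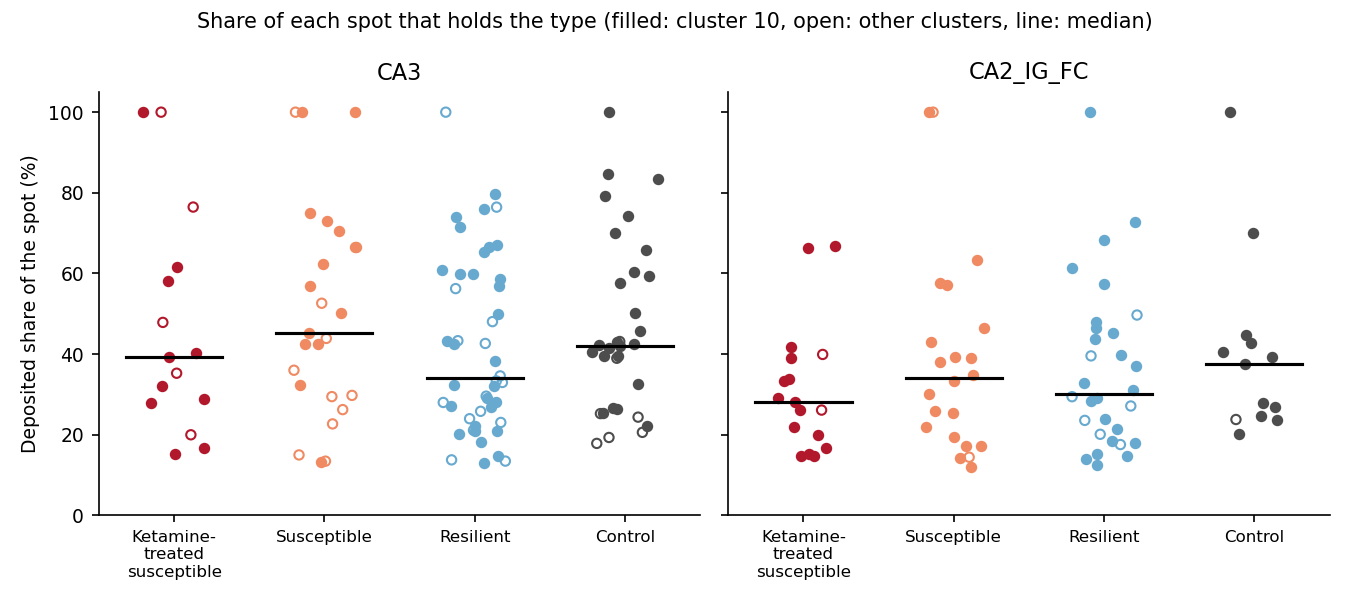
Deposited share of each spot that holds CA3 (left) or CA2_IG_FC (right), in percent of the spot, by section, with 1 point per spot. Filled points lie in deposited cluster 10 and open points in other clusters, black lines are medians over all spots shown for the section, and sideways spread within a section is random. The points of all 4 sections cover similar ranges, and the CA3 medians (34.0% to 45.3%) lie above the CA2_IG_FC medians of the same sections (28.0% to 37.6%).

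The number of types in a CA3 spot went with how much CA3 it held. The 42 CA3 spots with 2 types had a median CA3 share of 54.4%, the 46 spots with 3 types 37.7% and the 18 spots with 4 types 25.1%. Since the shares of a spot sum to 1, a lower share beside more types is built into the measure. CA3 spots held a mean of 2.53 types in the ketamine-treated susceptible, 2.64 in the susceptible, 2.96 in the resilient and 2.72 in the control section. CA2_IG_FC spots held 2.65, 2.50, 2.83 and 3.23 types.

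CA2_IG_FC shared spots with both of its neighbouring fields, while CA3 and CA1 shared none. CA3 and CA2_IG_FC were together in 27 spots, which was 22.9% of the CA3 spots and 32.9% of the CA2_IG_FC spots. CA2_IG_FC and CA1 were together in 16 spots, or 19.5% of the CA2_IG_FC spots. CA3 and CA1 were together in 0 of 118 CA3 spots, which allows a share of up to 2.54%, although 239 spots held CA1. No spot held CA1, CA2_IG_FC and CA3 at once.

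This held in each section. CA2_IG_FC was in 7 of 15 CA3 spots in the ketamine-treated susceptible section (46.7%), 5 of 25 in the susceptible (20.0%), 10 of 46 in the resilient (21.7%) and 5 of 32 in the control (15.6%). Outside CA3 spots it was in 0.216% to 0.497% of the spots of a section. CA1 was in 2 of 17 CA2_IG_FC spots in the ketamine-treated susceptible section, 5 of 22 in the susceptible, 6 of 30 in the resilient and 3 of 13 in the control. The share of CA3 spots with CA2_IG_FC was highest in the ketamine-treated susceptible section, which had the fewest CA3 spots.

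In the 27 spots with both types neither prevailed. The median share was 35.3% for CA3 and 38.9% for CA2_IG_FC, their sum had a median of 76.5% of the spot, and CA3 was the higher in 14. Of these spots 23 lay in cluster 10. By contrast, where CA2_IG_FC met CA1, CA1 took a median of 55.2% and CA2_IG_FC 23.8%, and CA2_IG_FC was the higher in 2 of 16 spots.

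DG was with CA3 in 9 spots and with CA2_IG_FC in 13. It was in 1 CA3 spot of the ketamine-treated susceptible, 1 of the susceptible, 4 of the resilient and 3 of the control section. In CA2_IG_FC spots DG was found in 5, 3, 4 and 1 in the same order. DG had the higher share in 7 of the 9 CA3 spots and in all 13 CA2_IG_FC spots, with medians of 54.7% and 81.5%. DG and CA1, the fields with most spots, met in 1 spot.

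**Figure D3:**
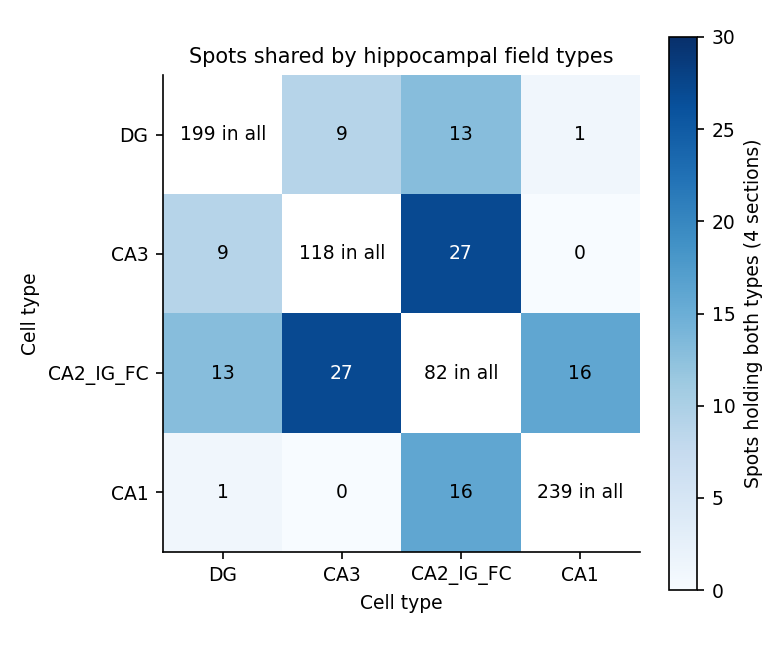
Number of spots, summed over the 4 sections, that hold both of 2 hippocampal field types, with the number of spots of each type on the diagonal. CA2_IG_FC shares 27 spots with CA3 and 16 with CA1, while CA3 and CA1 share 0.

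The deposited clusters set most CA3 and CA2_IG_FC spots in 1 place. Cluster 10 held 79 of the 118 CA3 spots and 70 of the 82 CA2_IG_FC spots, along with 171 CA1 and 179 DG spots. For CA3 this was 66.7% of the spots in the ketamine-treated susceptible section (38.4 to 88.2), 60.0% in the susceptible (38.7 to 78.9), 63.0% in the resilient (47.5 to 76.8) and 78.1% in the control (60.0 to 90.7). For CA2_IG_FC it was 88.2% (63.6 to 98.5), 90.9% (70.8 to 98.9), 76.7% (57.7 to 90.1) and 92.3% (64.0 to 99.8) in the same order. The intervals of all 4 sections overlapped for both types.

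Cluster 10 was small, with 123 spots in the ketamine-treated susceptible, 147 in the susceptible, 191 in the resilient and 173 in the control section. At least 1 of the 5 hippocampal field types was in 57.7% of its spots in the ketamine-treated susceptible section, 68.7% in the susceptible, 75.9% in the resilient and 70.5% in the control. CA3 was in 8.13% of them in the ketamine-treated susceptible section (3.97 to 14.4), 10.2% in the susceptible (5.82 to 16.3), 15.2% in the resilient (10.4 to 21.1) and 14.5% in the control (9.58 to 20.6). CA2_IG_FC was in 12.2% (6.99 to 19.3), 13.6% (8.51 to 20.2), 12% (7.79 to 17.5) and 6.94% (3.64 to 11.8). All of these intervals overlapped between sections. The ratio interval within the cluster included 1 for both types in each of the 5 pairs compared, so no difference was detectable in those pairs.

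Outside cluster 10, CA3 was more widely scattered than CA2_IG_FC. The other 39 CA3 spots fell in 11 clusters and the other 12 CA2_IG_FC spots in 5. Cluster 8 held 8 CA3 spots, cluster 1 held 7 and cluster 9 held 6, where CA3 was in at most 1.17% of the spots of a cluster over the 4 sections together and at most 1.70% in a single section (cluster 8, resilient). By section, cluster 9 held 4 ketamine-treated susceptible and 2 resilient spots with CA3, and cluster 8 held 3 susceptible and 5 resilient spots with CA3. Cluster 9 also held 7 of the 12 scattered CA2_IG_FC spots.

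**Figure D4:**
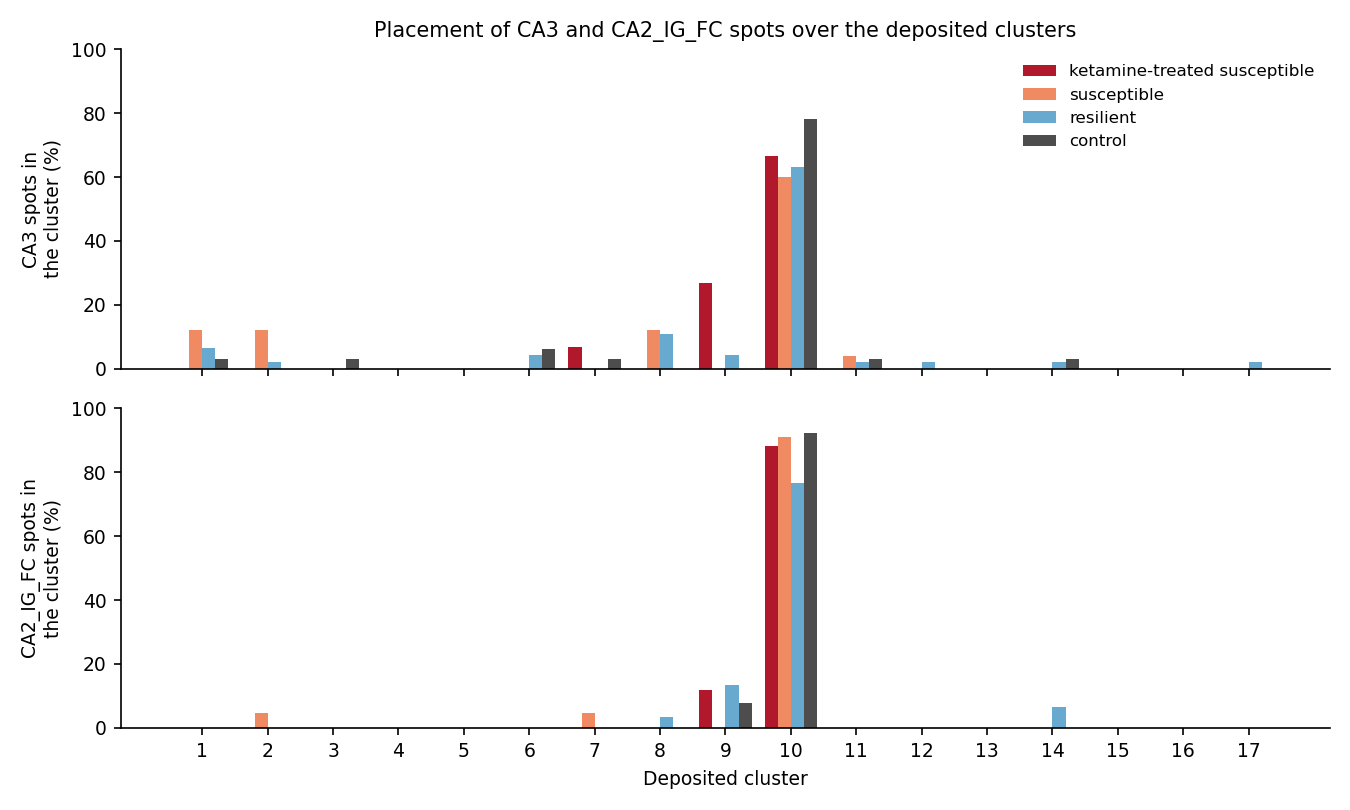
Percent of the CA3 spots (upper panel) and of the CA2_IG_FC spots (lower panel) of each section that lie in each of the 17 deposited clusters. Cluster 10 holds 60.0% to 78.1% of CA3 spots and 76.7% to 92.3% of CA2_IG_FC spots, and CA3 has spots in more of the other clusters.

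The types placed most like CA3 over the clusters were CA2_IG_FC, DG and CA1, with mean cosines of 0.970, 0.967 and 0.934 over the 4 sections among 47 types compared. For CA2_IG_FC they were DG (0.994), CA3 (0.970) and CA1 (0.958). The next type for both was SUB, named for the subiculum, at 0.555 for CA3 and 0.517 for CA2_IG_FC. The cosine compares only the spread over clusters, so types that never meet in a spot, as CA3 and CA1, can score high.

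Spots of CA3 in cluster 10 and elsewhere differed in the types they held. Inside the cluster the median CA3 share was 43.3% and CA3 led 45 of 79 spots, while outside it the median was 29.8% and CA3 led 12 of 39. DG was in 9 CA3 spots inside and in 0 outside, and CA2_IG_FC in 23 inside and 4 outside. In all, only 20 spots with DG and 12 with CA2_IG_FC lay outside the cluster, so few meetings could be seen there. Oligodendrocytes, the myelin-forming cells, were in 3.80% of the CA3 spots inside and 28.2% of those outside. Among spots without CA3 they were in 7.75% inside the cluster and 31.2% over all clusters, so this gap was not particular to CA3 spots. By section, the median CA3 share inside and outside was 35.7% and 47.9% in the ketamine-treated susceptible, 62.4% and 29.6% in the susceptible, 42.5% and 33.0% in the resilient, and 43.0% and 24.4% in the control section. The ketamine-treated susceptible section, with 10 spots inside and 5 outside, thus ran the other way from the rest.

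The deposited t-SNE map places all spots of the 4 sections in 1 plane. For each CA3 spot the 10 nearest spots from the other 3 sections were looked up. Of these neighbours 42.0% held CA3 for the ketamine-treated susceptible, 52.4% for the susceptible, 33.5% for the resilient and 48.8% for the control section, beside 0.676% to 0.909% of all spots of the other sections. Cluster 10 as a whole held CA3 in 8.13% to 15.2% of its spots by section. Many CA3 spots of 1 section thus lay close to CA3 spots of other sections. At least 1 such neighbour was found for 14 of 15, 17 of 25, 27 of 46 and 22 of 32 CA3 spots in the same order. CA2_IG_FC was in 38%, 15.6%, 12.2% and 20.9% of the same neighbours. With neighbours drawn from the resilient and control sections alone, the CA3 values were 43.3% for the ketamine-treated susceptible and 54.0% for the susceptible section, beside 0.989% of all spots. The sources used here do not say what went into the map, and the clusters and the cell type shares may rest on the same data. Nearness on the map is therefore not independent evidence for the labels.

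CA3 spots inside and outside cluster 10 differed in this. CA3 spots inside cluster 10 had 57.0%, 82.7%, 47.9% and 60.8% of such neighbours in the ketamine-treated susceptible, susceptible, resilient and control sections. CA3 spots outside it had 12%, 7.00%, 8.82% and 5.71%. For CA2_IG_FC spots, 27.1%, 20.0%, 16.3% and 31.5% of the neighbours in other sections held CA2_IG_FC, beside 0.488% to 0.623% of all spots. Cluster 10 as a whole held CA2_IG_FC in 6.94% to 13.6% of its spots by section. Of the neighbours of CA2_IG_FC spots, 20.6%, 19.5%, 40.3% and 39.2% held CA1, and 25.9%, 36.8%, 18% and 34.6% held CA3. DG made up 37.6%, 24.5%, 13.7% and 4.62% of the neighbours in the same order, more than CA1 in the ketamine-treated susceptible and susceptible sections. Of all spots of the other sections, 1.48% to 1.69% held CA1, 0.676% to 0.909% CA3 and 1.26% to 1.46% DG. By section, cluster 10 itself held CA1 in 23.1% to 29.5% of its spots, CA3 in 8.13% to 15.2% and DG in 22.8% to 31.4%. The CA3 values lay above the cluster range for every section. The CA1 values of the ketamine-treated susceptible and susceptible sections lay below it, as did the DG values of the resilient and control sections. With neighbours from the resilient and control sections alone, 21.2% held CA2_IG_FC for the ketamine-treated susceptible and 15.9% for the susceptible section, beside 0.545% of all spots.

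Of the 66 other types, 27 were found in at least 1 CA3 spot and 16 in at least 1 CA2_IG_FC spot. Only 7 types reached 5 CA3 spots and 8 reached 5 CA2_IG_FC spots. By mean percent over the sections, the 8 most frequent in CA3 spots were L4_5_IT_TPE_ENT (39.0%), Astro (35.7%), CA2_IG_FC (26.0%), L5_PT_RSP_ACA (19.8%), Oligo (11.3%), DG (7.18%), Pvalb (4.17%) and L2_IT_RSPv (3.32%). In CA2_IG_FC spots they were Astro (39.8%), CA3 (33.9%), L4_5_IT_TPE_ENT (26.2%), CA1 (19.4%), L5_PT_RSP_ACA (18.6%), DG (16.0%), Micro (7.74%) and Oligo (5.08%). Hippocampal fields, glia and 2 cortical neuron labels thus made up most of the company of both types.

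By mean percent over the sections, the most frequent companion of CA3 was not a hippocampal label but L4_5_IT_TPE_ENT. Over all 118 CA3 spots it was in 44 and Astro in 45. Astro was in more CA3 spots than this label in the resilient (19 against 15) and control (15 against 13) sections. It was in fewer in the ketamine-treated susceptible (4 against 7) and susceptible (7 against 9) sections. L4_5_IT_TPE_ENT, whose header reads as intratelencephalic neurons of temporal and entorhinal cortex, was in 7 of 15 CA3 spots in the ketamine-treated susceptible section (46.7%, against 11.2% of the other spots). It was in 9 of 25 in the susceptible (36.0% against 10.6%), 15 of 46 in the resilient (32.6% against 15.9%) and 13 of 32 in the control section (40.6% against 11.4%). CA3 was the higher of the 2 in 39 of these 44 spots, with medians of 57.8% for CA3 and 21.1% for L4_5_IT_TPE_ENT. In all 4 sections the label was more frequent in CA3 spots than elsewhere.

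The difference was wider inside cluster 10. There L4_5_IT_TPE_ENT was in 39 of 79 CA3 spots (49.4%) and in 33 of the 555 other spots (5.95%). By section the CA3 spots of the cluster held it in 60.0%, 60.0%, 48.3% and 40.0% in the ketamine-treated susceptible, susceptible, resilient and control sections, and its other spots in 2.65%, 3.03%, 11.7% and 4.73%. Outside cluster 10 it was in 5 of 39 CA3 spots. CA2_IG_FC spots showed the label as well, in 21 of 70 inside the cluster (30%) beside 9.04% of the rest, and in 0 of 12 outside it.

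L5_PT_RSP_ACA, whose header reads as pyramidal tract neurons of retrosplenial and anterior cingulate cortex, was in 26 CA3 spots and 15 CA2_IG_FC spots. Over whole sections it was in 13.3%, 20.0%, 30.4% and 15.6% of CA3 spots of the ketamine-treated susceptible, susceptible, resilient and control sections, beside 17.4%, 15.9%, 21.6% and 13.1% of other spots. Inside cluster 10 it was in 19.0% of CA3 spots and 5.41% of the rest, and in 20.0% of CA2_IG_FC spots and 5.50% of the rest. For CA2_IG_FC the sections differed widely, with 0 of 17, 2 of 22, 8 of 30 and 5 of 13 spots. Its own share was small where it met CA3, with a median of 17.9%.

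Astrocytes (Astro), the support cells of synapses and vessels, were in 38.1% of CA3 spots and 39.0% of CA2_IG_FC spots, against 44.7% and 44.6% of the other spots. By section they were in 26.7%, 28.0%, 41.3% and 46.9% of CA3 spots of the ketamine-treated susceptible, susceptible, resilient and control sections, against 45.6%, 41.8%, 43.7% and 47.4% of other spots. For CA2_IG_FC spots the values were 47.1%, 22.7%, 43.3% and 46.2%, against 45.5%, 41.8%, 43.7% and 47.4%. In cluster 10 they were less frequent in the spots of both types. Astro was in 20.0%, 13.3%, 34.5% and 48.0% of the CA3 spots of the cluster in the ketamine-treated susceptible, susceptible, resilient and control sections, against 69.0%, 56.1%, 59.9% and 58.1% of its other spots. It was in 40.0%, 25%, 39.1% and 41.7% of its CA2_IG_FC spots, against 68.5%, 55.9%, 58.3% and 57.8% of the rest. Taken over all sections, the cortical labels described above were more frequent in these spots of the cluster than in the rest. An exception by section was L5_PT_RSP_ACA, in 0 of 15 such CA2_IG_FC spots of the ketamine-treated susceptible section against 6.48% of the rest. As CA3 and CA2_IG_FC take part of a spot, the share left for other types is smaller by construction. Whether this bears on how often Astro, the cortical labels or the types set out below were present was not tested.

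Oligodendrocytes (Oligo) were infrequent in CA3 and CA2_IG_FC spots of every section. They were in 6.67%, 12%, 10.9% and 15.6% of CA3 spots in the ketamine-treated susceptible, susceptible, resilient and control sections, beside 24.2%, 25.8%, 31.4% and 42.5% of other spots. In CA2_IG_FC spots the values were 0%, 13.6%, 6.67% and 0%. In cluster 10 Oligo was in 3.80% of the spots with CA3 and 7.75% of those without it. For CA2_IG_FC these values were close, at 5.71% and 7.45%, and Oligo was more frequent with CA2_IG_FC in 2 of the 4 sections.

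Inside cluster 10, DG and CA1 were less frequent with CA3 than without it. DG was in 10.0%, 6.67%, 13.8% and 12% of the CA3 spots of the cluster in the ketamine-treated susceptible, susceptible, resilient and control sections, against 23.9%, 34.1%, 34.6% and 28.4% of the other spots. CA1 was in 0 of the 79 CA3 spots and in 30.8% of the other 555. CA2_IG_FC spots of the cluster held CA1 in 22.9%, against 27.5% of the rest, with 13.3% against 27.8% in the ketamine-treated susceptible section and 25% to 26.1% against 22.8% to 29.8% in the others. They held DG in 15.7%, against 29.8% of the rest. DG was more frequent with CA2_IG_FC only in the ketamine-treated susceptible section (33.3% against 21.3%). In the susceptible, resilient and control sections it was in 15.0%, 13.0% and 0%, against 33.9%, 33.9% and 28.0% of the rest. By contrast, CA2_IG_FC was more frequent with CA3 than without it: it was in 60.0%, 33.3%, 24.1% and 20.0% of the CA3 spots of the cluster against 7.96%, 11.4%, 9.88% and 4.73% of its other spots.

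**Figure D5:**
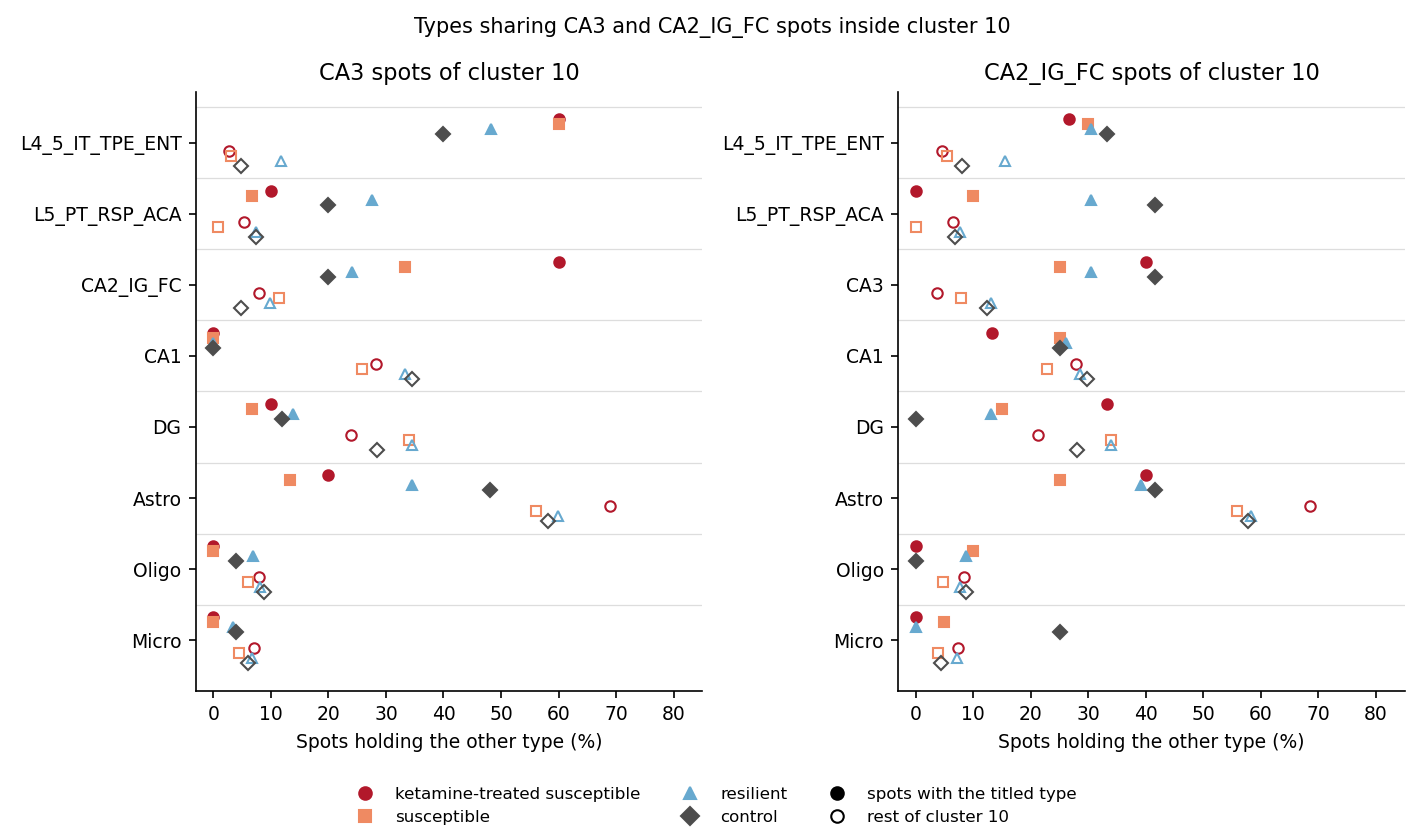
Percent of spots of cluster 10 holding each of 8 other types, in spots with CA3 (left, filled) or CA2_IG_FC (right, filled) and in the rest of the cluster (open), by section. L4_5_IT_TPE_ENT lies at 40.0% to 60.0% in CA3 spots and 2.65% to 11.7% in the rest, and CA1 at 0 in CA3 spots.

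Other labels of the hippocampal formation were absent from the spots of both types or nearly so. CA1_ProS, ProS, SUB, SUB_ProS, CT_SUB, L2_IT_ProS and Ndnf_HPF were in 0 of the 118 CA3 spots and 0 of the 82 CA2_IG_FC spots, which allows up to 2.54% and 3.66%. NP_SUB, near-projecting neurons of the subiculum, was in 2 CA3 and 0 CA2_IG_FC spots. CR, named for Cajal-Retzius cells, was in 2 spots of each type. Several of these labels were rare everywhere, with L2_IT_ProS in 5 and ProS in 16 spots of all 14809, so that few meetings could be seen. NP_SUB, Ndnf_HPF and CR were in 3.20%, 2.72% and 4.51% of the spots without CA3.

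Cells of the vessels and immune cells were in few spots of either type, and were infrequent elsewhere too. Endo was in 0 CA3 and 2 CA2_IG_FC spots, and VLMC, cells of the meninges and vessel walls, in 2 CA3 and 0 CA2_IG_FC spots. Endo was in 3.05% of the spots without CA3 and 3.03% of those without CA2_IG_FC, and VLMC in 3.26% and 3.27%, so few meetings could be seen. Microglia (Micro) were in 4 CA3 spots (3.39%) and 5 CA2_IG_FC spots (6.10%), and 3 of those 5 were among the 13 control spots. In the other spots of the series Micro was found in 3.49% (without CA3) and 3.47% (without CA2_IG_FC).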

How the data were processed

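Spatial transcriptomics was run on 4 sections, 1 per group. The genome build was mm10, per the submitters' processing notes. The sources used here do not say how reads were aligned, counted and clustered or how cell types were assigned. Each deposited table gives the fraction of each spot that the authors assigned to 67 cell types or to unknown, printed here as percent, and a cluster number. The deposited t-SNE coordinates are a score without unit; each barcode suffix matched 1 section's barcodes exactly. Total counts, genes and positions were not analysed here, so depth is unknown.

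Percentages of spots were computed with exact Clopper-Pearson 95% intervals, and ratios of sections with exact conditional binomial 95% intervals (Python 3.11.15, scipy 1.17.1). A count of 0 was given the limit of 3 spots. Neighbouring spots are not independent, which the intervals ignore. No p-value was computed. Intervals and the averaging over clusters were tested on simulated data with independent spots, which cannot show the effect of dependence between neighbouring spots.

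The members, lists and comparisons were chosen with earlier results of these data known. Named were CA3, CA2_IG_FC, hippocampal types, CR, common glia and vessel types, the 8 types most frequent in the spots of each, the 5 with the highest ratio of presence among types in at least 5 spots, and the 3 placed most alike over clusters.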

Additional observations from a re-analysis of the deposited data

How the results depend on the processing

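The 10 ratios between sections (CA3 and CA2_IG_FC in 5 pairs) were recomputed under 7 alternatives, and under an added one, chosen after seeing the data, that keeps only barcodes present in both sections. All 40 CA3 values stayed inside the counting interval of the ratio as reported, with ranges of 0.540 to 0.797 (ketamine-treated susceptible over susceptible), 0.429 to 0.764 (ketamine-treated susceptible over control), 0.706 to 0.993 (susceptible over control), 0.535 to 0.829 (susceptible over resilient) and 1.05 to 1.31 (resilient over control). For CA2_IG_FC 38 of 40 did so, with ranges of 0.495 to 0.914, 0.460 to 1.76, 0.929 to 1.96, 0.733 to 1.13 and 0.898 to 2.04 in the same order. The CA2_IG_FC ratios crossed 1 in 6 of 40 cases and those of CA3 in 0 of 40. By spots led, with 3 to 7 spots on each side, ketamine-treated susceptible over control was 0.460, susceptible over control 0.929, resilient over control 0.898 and susceptible over resilient 1.03. Ketamine-treated susceptible over control was 0.991 with a share of at least 20%, and susceptible over resilient was 1.13 within cluster 10. The cause was not tested. All 16 alternative values of the percent in cluster 10 stayed inside their intervals. Drawing t-SNE neighbours from the resilient and control sections alone was also chosen after seeing the data.

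Of the partner results, counted as sections of 4 in which a type was more frequent in the spots, 35 of 48 were equal to the reported count and 6 more moved by 1 section, within 1.5 times of it. With mean shares, the number for L5_PT_RSP_ACA became 0 in CA3 and 1 in CA2_IG_FC spots, for Astro 0 and for Micro 1 in CA2_IG_FC spots. With spots holding at least 20% of the type, Astro became 1 in CA3 and 2 in CA2_IG_FC spots and Micro 1. The cause was not tested.

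The number of types differing by 1.5-fold was 8, 10, 15, 20 and 20 in the 5 pairs, of 41, 40, 41, 46 and 45 types counted. It became 16, 19, 24, 31 and 28 when types in 5 spots counted, and 6, 7, 11, 11 and 13 with at least 50 spots. The number of types counted differs between these settings, so the counts cannot be compared as shares. No replicate could be left out. No paired analysis was possible because each group has 1 section. The number of spots, 13 to 46 per section, limits what can be detected.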

Other observations

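Where another type had the highest share of a CA3 spot, it was most often Astro (21 spots), CA2_IG_FC (13), DG (7), Oligo (7) or Pvalb, the parvalbumin interneurons (5). Pvalb was in 6 CA3 spots in all, 0 of them in cluster 10. In CA2_IG_FC spots the leader was most often Astro (17), CA1 (13), CA3 (12) or DG (11). CA2_IG_FC was thus led by CA1, CA3 and DG in different spots, and CA3 by CA2_IG_FC and DG. The leading types were named here after their values were seen.

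At the barcodes common to the ketamine-treated susceptible and susceptible sections, CA1 was held in both at 26, of 46 and 52 CA1 barcodes, and DG in both at 20, of 33 and 46. Cluster 10 was given to 118 and 144 of these barcodes and to both at 76. In the other 5 pairs of sections, 0 common barcodes were in cluster 10 in both. CA1 was held in both the ketamine-treated susceptible and the control section at 4 barcodes, of 41 and 74 CA1 barcodes, and in the remaining 4 pairs CA1 was held in both at 0. DG was held in both at 0 in all 5.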
